A study of Sus scrofa domesticus with 28 samples.

Results

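C1QTNF3, PTN and PHACTR3 are 3 pig genes whose level stood high above control skin in early scar and then fell back. They were grouped by an annotation rule: every array probe whose RefSeq accession maps to one of these genes was kept, and the size of the early difference and its return in mid and late scar were read from it. The rule found 6 of 43603 probes, namely 1 for C1QTNF3 (NM_001145386), 3 for PTN (NM_214336) and 2 for PHACTR3 (NM_001110176). The 3 genes are 3 of 18768 features tested, of which 2646 carry a gene symbol. Because the genes were picked for their course from control skin through early to mid and late scar, their values in those comparisons are given as a description, without a test.

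The data are 28 skin biopsies from 2 juvenile castrated male red Duroc pigs, numbered 49 and 50, taken to follow wound healing and scar formation with abnormal pigmentation. The groups comprise 4 biopsies of control skin, which the labels call BL, 4 of early sham-treated hyperpigmented (hyper) scar and 4 of early sham-treated hypopigmented (hypo) scar, each from the left and right side of both animals. A further 8 groups of 2 biopsies, 1 per animal, cross mid or late phase with sham or pressure treatment and hyper or hypo pigmentation. All sham biopsies of mid and late scar came from the left side and all pressure biopsies from the right, so treatment and side cannot be told apart there. All hyper biopsies carry the code a1 in their titles and all hypo biopsies a3, with no stated meaning, so pigmentation and this code cannot be told apart either. A further number in the scar titles, with no stated unit, was 49 in early scar, at least 91 in mid scar and higher still in late scar. With only 2 pigs, the p values describe how far these biopsies scatter and do not reach to other pigs.

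C1QTNF3, also known as CTRP3 or cartducin, is a secreted protein of the C1q/TNF family, to which the fat hormone adiponectin belongs, and it was first known from growing cartilage. PTN (pleiotrophin) is a secreted heparin-binding growth factor of the midkine family, which binds the receptor phosphatase PTPRZ1, syndecans and other proteoglycans and acts on growing nerve, bone and healing tissue. PHACTR3, also called scapinin, works inside the cell, where it binds protein phosphatase 1 and actin. In a healing wound fibroblasts fill the defect with collagen-rich matrix, and the early scar is then remodelled over months.

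On each array the biopsy RNA (Cy5) was set against a universal pig reference RNA (Cy3), and all levels below are log2 of that ratio, where a difference of 1 is 2-fold. Levels of different genes are relative to different amounts in the reference and are not compared with each other. Per array, 13709 to 24300 probes (median 20325) gave a Cy5 signal clearly brighter than the local background by the scanner program's flag. The best probe of each gene, the one with the highest mean biopsy signal, was well above background on 28 of 28 arrays, and no spot of it was saturated or missing. These are whole biopsies, so fewer cells of a type and less RNA per cell cannot be told apart. On 3 arrays the genes of skeletal muscle stood apart from the others: early sham hypo 50L, mid pressure hyper 49R and late pressure hyper 49R had a muscle list level of 2.86, 4.13 and 4.80, against -1.35 to 1.60 on the other 25, and results are given with and without these arrays where they differ.

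The secreted C1q/TNF protein C1QTNF3 showed the largest early difference of the group. In control skin its log2 ratio was 0.61 in animal 49 right, 1.72 in 49 left, -0.13 in 50 left and 1.55 in 50 right. In early hyper scar it was 3.68 in 49 left, 5.65 in 49 right, 4.81 in 50 left and 6.27 in 50 right. In early hypo scar it was 6.59, 5.72, 6.05 and 6.97 in the same order. Every early biopsy thus lay above every control biopsy, and the lowest early value was the left hyper scar of animal 49. The early mean was 5.72 ± 1.05 (SD, n = 8) and the control mean 0.94 ± 0.86 (SD, n = 4), a difference of 4.78 ± 0.71 (SE) or 27.5-fold, which ranked as number 4 of 18768 features.

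In mid scar C1QTNF3 spread over nearly the whole span between control skin and early scar. In animal 49 its log2 ratio was 0.70 in sham hyper, 1.95 in sham hypo, 2.20 in pressure hyper and 6.45 in pressure hypo scar. In animal 50 it was 2.52 in sham hyper, 5.70 in sham hypo, 4.79 in pressure hyper and 3.11 in pressure hypo scar. Of the 8 mid biopsies 7 were above the highest control value and 3 lay within the early range. Late scar was lower again. In animal 49 late values were 1.65 in sham hyper, 0.39 in sham hypo, 2.24 in pressure hyper and 0.37 in pressure hypo scar. In animal 50 they were 2.70, 1.99, 5.85 and 1.94 in the same order. Here 5 of 8 biopsies were above the highest control value, and the right pressure hyper scar of animal 50 alone still lay within the early range.

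The growth factor PTN ran the same course on a smaller scale. Its log2 ratio in control skin was -0.63 in animal 49 right, -0.52 in 49 left, -0.03 in 50 left and 0.04 in 50 right. In early hyper scar it was 2.66 in 49 left, 3.49 in 49 right, 3.14 in 50 left and 3.74 in 50 right. In early hypo scar it was 3.77, 3.66, 3.48 and 4.01 in the same order. The early values were close together and all far above control skin, at 3.49 ± 0.42 (SD, n = 8) against -0.29 ± 0.34 (SD, n = 4). The difference was 3.78 ± 0.59 (SE), or 13.7-fold, number 13 of 18768 features.

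Mid scar PTN again held both high and low biopsies. In animal 49 its log2 ratio was 0.38 in sham hyper, -0.52 in sham hypo, 0.80 in pressure hyper and 3.87 in pressure hypo scar. In animal 50 it was 1.61, 3.18, 2.82 and 2.24 in the same order. The 3 biopsies within the early range were the same as for C1QTNF3, namely pressure hypo 49R, sham hypo 50L and pressure hyper 50R. All 3 carry the number 91 in their titles, the lowest of mid scar. Sham hyper 49L and pressure hyper 49R carry 91 too and lay below the early range. The part of that number in the spread was not tested. In late scar of animal 49 PTN was -0.38 in sham hyper, -1.05 in sham hypo, -0.97 in pressure hyper and -1.37 in pressure hypo scar. In late scar of animal 50 it was 1.97, 1.27, 3.86 and 0.79 in the same order. All 4 late biopsies of animal 50 were above the highest control value, and 3 of the 4 of animal 49 were below the lowest value of that animal's own control skin.

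PHACTR3, the phosphatase and actin binding protein, had the most uniform control values. Its log2 ratio in control skin was 0.44 in animal 49 right, 0.15 in 49 left, 0.51 in 50 left and 0.27 in 50 right. In early hyper scar it was 3.76 in 49 left, 4.06 in 49 right, 3.14 in 50 left and 4.52 in 50 right. In early hypo scar it was 4.73, 3.88, 3.42 and 4.50 in the same order. Control and early biopsies did not overlap, with means of 0.34 ± 0.17 (SD, n = 4) and 4.0 ± 0.56 (SD, n = 8). The difference was 3.66 ± 0.55 (SE), or 12.7-fold, number 17 of 18768 features.

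In mid scar of animal 49 the PHACTR3 log2 ratio was 1.57 in sham hyper, 0.49 in sham hypo, 0.94 in pressure hyper and 3.87 in pressure hypo scar. In mid scar of animal 50 it was 1.34, 3.66, 3.19 and 2.69 in the same order. The biopsies within the early range were once more pressure hypo 49R, sham hypo 50L and pressure hyper 50R. In late scar of animal 49 PHACTR3 was 0.15 in sham hyper, 0.60 in sham hypo, -0.06 in pressure hyper and 0.26 in pressure hypo scar, which is the span of control skin or close to it. In late scar of animal 50 it was 2.43, 1.83, 3.60 and 1.1 in the same order, all above control skin.

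**Figure D1:**
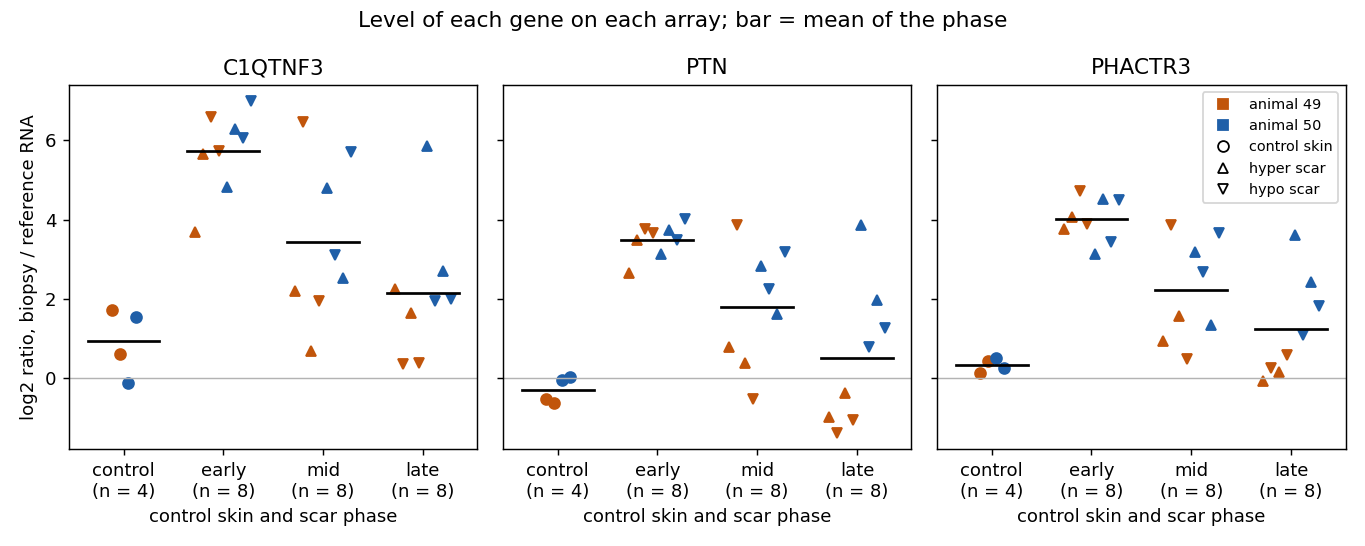
Log2 ratio of biopsy to reference RNA (vertical axis) for C1QTNF3, PTN and PHACTR3 on each of the 28 arrays, by phase, with animals by colour, pigmentation by symbol and the mean of each phase as a bar. All 8 early arrays lie above all 4 control arrays for each gene, and in late scar the arrays of animal 50 lie higher than most of those of animal 49.

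For all 3 genes all 8 early biopsies were higher than all 4 control biopsies. Over all features, 38.8% passed in early scar against control skin, 24.1% as higher and 14.7% as lower (adjusted p under 0.05 by limma with Benjamini-Hochberg adjustment), with a median difference of 0.11. The share of all features whose early and control biopsies did not overlap is not given. Since the genes were selected on this contrast, nothing is read from these counts. On the slides that held both kinds of biopsy the early difference of C1QTNF3 was 5.66 on slide 3 (1 scar and 1 control array) and 6.48 on slide 4 (2 and 1). It was 4.37 and 3.87 for PTN and 4.08 and 3.68 for PHACTR3 on the same slides. Leaving out the array with muscle genes, early sham hypo 50L, gave 4.92 for C1QTNF3, 3.94 for PTN and 3.86 for PHACTR3.

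Mid scar, with sham and pressure biopsies averaged, stood 2.49 ± 0.71 above control skin for C1QTNF3, 2.08 ± 0.59 for PTN and 1.88 ± 0.55 for PHACTR3 (log2 ± SE), or 5.61-fold, 4.24-fold and 3.68-fold. Among all features 33.8% passed in this comparison. Within slides 2 and 3 the mid difference was 4.81 and 5.09 for C1QTNF3, 4.12 and 3.81 for PTN and 3.66 and 3.22 for PHACTR3, each from a lone scar array, and these 2 arrays were among the 3 highest of mid scar. In late scar the differences from control skin were 1.21 ± 0.71, 0.80 ± 0.59 and 0.90 ± 0.55, or 2.31-fold, 1.74-fold and 1.86-fold, while 39.7% of all features passed, 26.3% as higher and 13.4% as lower. The 95% interval of each late difference included 0: it ran from -0.27 to 2.68 for C1QTNF3, from -0.44 to 2.04 for PTN and from -0.25 to 2.05 for PHACTR3. Within slides 2, 3 and 4 the late difference was -1.25, 1.34 and 2.37 for C1QTNF3. It was -0.81, 1.42 and -0.94 for PTN and 0.39, 0.66 and -0.57 for PHACTR3, so its direction was not the same on all slides. Each value rests on a lone scar array, of animal 49 on slides 2 and 4 and of animal 50 on slide 3. On slides 3 and 4 the control array came from the other animal. Slide and animal therefore cannot be told apart in these values. The late means rested on few arrays: without pressure hyper 50R the late difference was 0.33 for PTN and 0.52 for PHACTR3, without pressure hyper 49R it was 1.27 for PTN, and without control 50L it was 0.66 for C1QTNF3. Without the 3 arrays with muscle genes the late differences were 1.57, 1.27 and 1.29.

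Sham-treated scars alone, which leave out the pressure biopsies and with them the right side in mid and late scar, gave the same order. From early to mid sham scar C1QTNF3 differed by -3.00 ± 0.71, PTN by -2.33 ± 0.59 and PHACTR3 by -2.24 ± 0.55 (log2 ± SE). They ranked as number 5, 17 and 20 from the lowest of all features, of which 6.45% passed. That share stands for 1211 features, and without mid sham hypo 49L only 24 passed. From early to late sham scar the differences were -4.04 ± 0.71, -3.04 ± 0.59 and -2.75 ± 0.55, number 2, 6 and 16 from the lowest, with 19.9% of features passing, 9.67% as higher and 10.3% as lower. C1QTNF3 was thus 16.4-fold lower in late than in early sham scar, PTN 8.24-fold and PHACTR3 6.72-fold. These values come from the contrast that chose the genes and share the early sham arrays with it.

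Of the early log2 difference C1QTNF3 kept 52.0% in mid and 25.2% in late scar, PTN 55.1% and 21.2%, and PHACTR3 51.3% and 24.5%. For scale, 1175 features were at least 2-fold higher in early scar and passed the test. Their median share kept was 60.8% in mid scar and 47.4% in late scar, with quartiles of 26.7% and 71.8% in late scar. All 3 genes therefore stood below the lower quartile in late scar and below the median in mid scar. They were chosen for their fall after early scar, so a low share was built into the choice and this place is only a description. The shares are means over both animals, which differed as given below. Among the 57 features with an early difference of at least 3 the median share was 56.0% in mid and 40.8% in late scar. Of these, 13 carry a symbol. The others of the 13 that came closest to C1QTNF3, PTN and PHACTR3 or fell below them were ITGA2B and STEAP1. ITGA2B, an integrin chain of platelets, kept 27.5%, and STEAP1, a membrane protein, kept -14.6%. The matrix proteoglycan ASPN, whose early difference of 4.55 was closest to that of C1QTNF3, kept 49.3%.

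**Figure D2:**
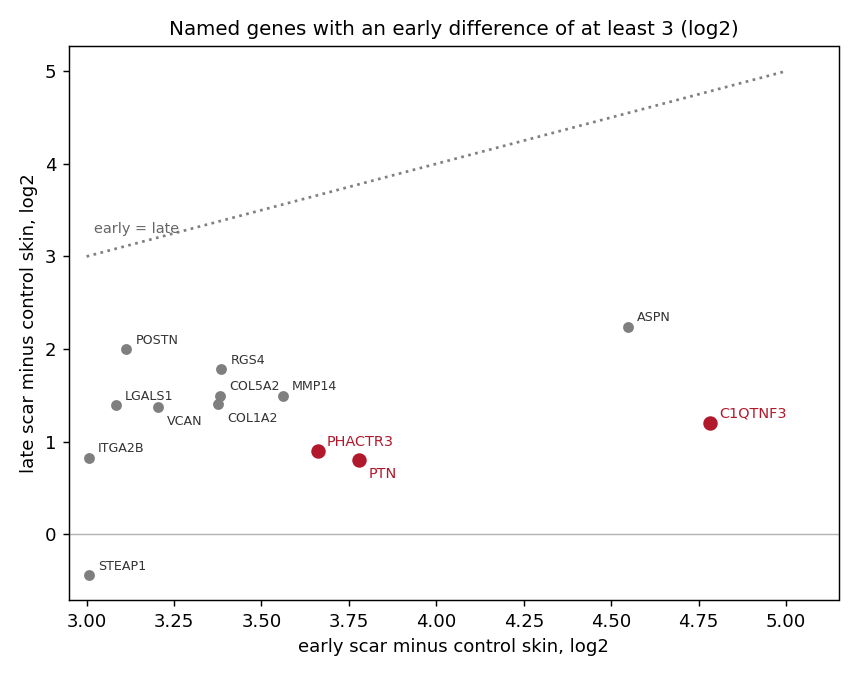
Late against early log2 difference from control skin for the 13 named genes with an early difference of at least 3, with C1QTNF3, PTN and PHACTR3 in red and a dotted line where early and late would be equal. C1QTNF3 at 4.78 early and 1.21 late lies far to the right of genes with a like late difference, while ASPN kept 2.24.

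The 2 animals differed in how far the genes came back. In animal 49, late scar (4 biopsies) against that animal's own control skin (2 biopsies) differed by -0.0019 for C1QTNF3, -0.37 for PTN and -0.05 for PHACTR3. In animal 50 the same differences were 2.41, 1.97 and 1.85, and all 4 late biopsies of that animal were above its highest control value for all 3 genes. The share of all features with such a separation is not given, so nothing is read from that count. The early differences were 4.25 and 5.32 for C1QTNF3, 3.97 and 3.59 for PTN and 3.81 and 3.51 for PHACTR3 in animals 49 and 50. Animal 50 thus kept 45.4%, 54.8% and 52.8% of the early difference of C1QTNF3, PTN and PHACTR3 in late scar, and animal 49 kept -0.04%, -9.23% and -1.40%.

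The difference between the animals in the late change was tested in a fit chosen after the values were seen, with a mean for each phase and animal. It was 2.41 ± 1.72 (SE) for C1QTNF3, 2.33 ± 1.11 for PTN and 1.90 ± 0.99 for PHACTR3. None passed (adjusted p = 0.999 each, limma with Benjamini-Hochberg adjustment), and 0% of all features did, with 844 at an unadjusted p under 0.05. The 95% intervals ran from -1.18 to 6.01, from 0.01 to 4.65 and from -0.17 to 3.98. For the mid change the differences between animals were 1.66 ± 1.72, 0.75 ± 1.11 and 0.90 ± 0.99, with adjusted p = 1 each in limma, and for the early change they were 1.07 ± 1.72, -0.38 ± 1.11 and -0.31 ± 0.99, also with adjusted p = 1. The numbers in the late titles were not balanced between the animals: the lowest of them stood on 1 of 4 biopsies of animal 49 and on 3 of 4 of animal 50. In the sham hyper biopsies, where both animals carry this lowest number, C1QTNF3 was 1.65 in animal 49 and 2.70 in animal 50, PTN -0.38 and 1.97, and PHACTR3 0.15 and 2.43. The part of that number in the difference was not tested.

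**Figure D3:**
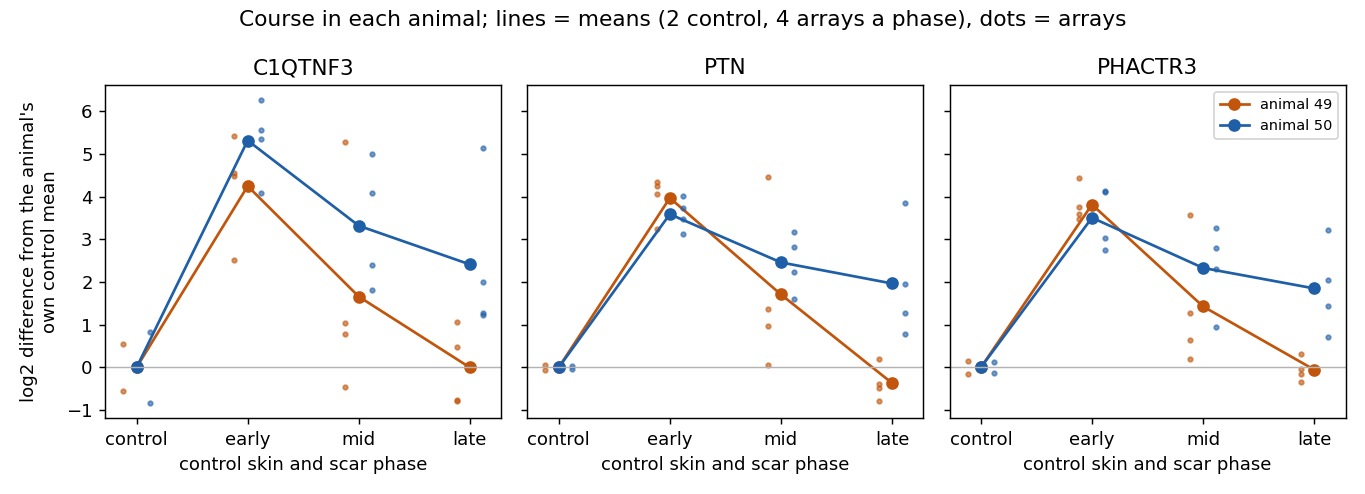
Log2 difference from the animal's own control mean for C1QTNF3, PTN and PHACTR3 by phase, with lines through the means of animal 49 and animal 50 and dots for single arrays. The lines lie closer in early scar for PTN and PHACTR3 than for C1QTNF3 (4.25 and 5.32), and they end at -0.0019, -0.37 and -0.05 in animal 49 and at 2.41, 1.97 and 1.85 in animal 50.

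Pigmentation was not part of the choice of genes and was tested. In early scar hyper biopsies had less C1QTNF3 than hypo biopsies of the same animal and side in 4 of 4 pairs, by -2.91, -0.08, -1.25 and -0.70 in 49 left, 49 right, 50 left and 50 right. PTN was lower in 4 of 4 pairs as well, by -1.11, -0.18, -0.34 and -0.27. PHACTR3 was lower in 2 of 4 pairs. In the fit the early differences of hyper minus hypo were -1.23 ± 0.82 for C1QTNF3, -0.47 ± 0.68 for PTN and -0.26 ± 0.64 for PHACTR3 (log2 ± SE, limma, adjusted p = 0.998 each), and 0% of features passed, with 868 at an unadjusted p under 0.05. Their 95% intervals ran from -2.94 to 0.47, from -1.90 to 0.95 and from -1.59 to 1.06. The fit blocks by animal, not by side, and shares 1 spread per gene over all phases. These SE and p values thus also carry the wider scatter of mid and late scar. For C1QTNF3, PTN and PHACTR3 the SD was 1.05, 0.42 and 0.56 in early scar. It was 2.01, 1.51 and 1.30 in mid scar and 1.72, 1.81 and 1.29 in late scar.

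In mid scar the pairs disagreed. C1QTNF3 was lower in the hyper biopsy in 3 of 4 pairs, by -1.25, -4.25 and -3.18, and higher by 1.68 in 50 right. PTN and PHACTR3 were lower in 2 of 4 pairs each. The fitted differences were -1.75 ± 0.82 (limma, adjusted p = 0.526), -0.79 ± 0.68 (0.739) and -0.92 ± 0.64 (0.665), with 0% of features passing and 1764 at an unadjusted p under 0.05. Leaving out pressure hypo 49R moved the C1QTNF3 value to -0.58.

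In late scar the sign was opposite. C1QTNF3 was higher in the hyper biopsy in 4 of 4 pairs, by 1.26, 1.86, 0.72 and 3.91 in 49 left, 49 right, 50 left and 50 right. PTN was higher in 4 of 4 pairs too, by 0.67, 0.39, 0.70 and 3.07. PHACTR3 was higher in 2 of 4 pairs, with a range from -0.45 to 2.51. The fitted differences were 1.94 ± 0.82 for C1QTNF3 (limma, adjusted p = 0.175), 1.21 ± 0.68 for PTN (adjusted p = 0.317) and 0.58 ± 0.64 for PHACTR3 (adjusted p = 0.634). None of the 3 genes passed, against 5.02% of all features, most of which were lower in hyper scar (4.51% lower and 0.506% higher). The 942 features behind that share became 31 without sham hyper 49L and 103 without pressure hyper 49R, and 1482 without sham hyper 50L. With the slide as a fixed block the C1QTNF3 difference was 2.77 with adjusted p = 0.0340 in limma. Over all alternatives that kept the 28 arrays that adjusted p ran from 0.0340 to 0.553. Without pressure hyper 50R the late differences were 1.24, 0.27 and -0.18, and the size of the PTN value therefore rested on that biopsy. Without the 3 arrays with muscle genes, 1 of which is pressure hyper 49R, they were 2.66, 2.14 and 1.36 (limma, adjusted p = 0.0866, 0.0617 and 0.181).

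**Figure D4:**
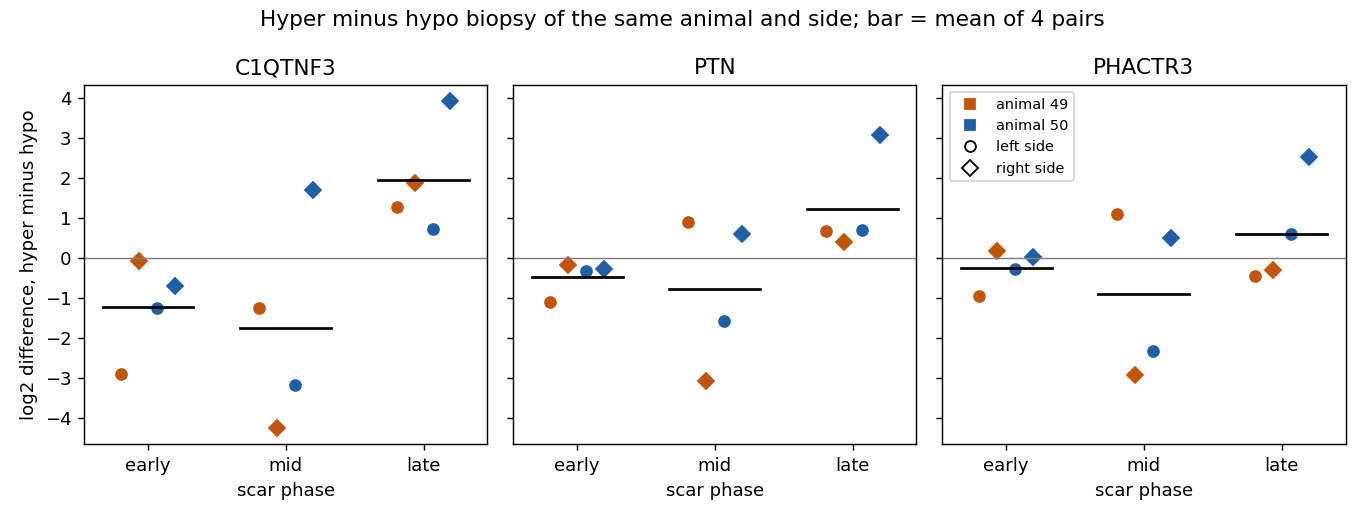
Log2 difference of the hyper minus the hypo biopsy of the same animal and side for C1QTNF3, PTN and PHACTR3 by phase, with the mean of the 4 pairs as a bar. All 4 pairs are below 0 in early scar and above 0 in late scar for C1QTNF3 and PTN, and the late pair of animal 50 right, at 3.91 for C1QTNF3, lies highest.

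The change of this difference from early to late scar, a comparison added after the values were seen, was 3.17 ± 1.16 for C1QTNF3, 1.68 ± 0.97 for PTN and 0.85 ± 0.90 for PHACTR3. The adjusted p values in limma were 0.119, 0.331 and 0.626, so none passed, while 4.88% of all features did. The unadjusted 95% interval for C1QTNF3 ran from 0.76 to 5.58. Without late pressure hyper 50R the changes were 2.47, 0.75 and 0.082. Over all phases the hyper minus hypo difference was -0.35 ± 0.47, -0.02 ± 0.40 and -0.20 ± 0.37 (limma, adjusted p = 0.999 each), and 0.016% of features passed. In 5 of 12 pairs the number in the titles differs between the hyper and the hypo biopsy, so the members of a pair need not share their sampling time or site.

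Pressure treatment was tested in mid and late scar, where it cannot be told apart from the right side. The number in the titles also differs between the pressure and the sham biopsy of some pairs. In mid scar these are the hypo pairs of both animals and the hyper pair of animal 50. In late scar they are the hyper pair of animal 49 and the hypo pair of animal 50. The part of that number in the differences was not tested. In mid scar C1QTNF3 was higher in the pressure biopsy than in the sham biopsy of the same animal and pigmentation in 3 of 4 pairs, by 1.5, 4.50 and 2.26, and lower by -2.59 in the hypo pair of animal 50. PTN was higher in 3 of 4 pairs and PHACTR3 in 2 of 4. In late scar C1QTNF3 was higher in 2 of 4 pairs, and PTN and PHACTR3 each in 1 of 4, the hyper pair of animal 50 in both cases. Over both phases the differences were 1.17 ± 0.58 for C1QTNF3, 0.70 ± 0.48 for PTN and 0.44 ± 0.45 for PHACTR3 (limma, adjusted p = 0.905, 0.905 and 0.935). Their 95% intervals ran from -0.04 to 2.37, from -0.31 to 1.71 and from -0.50 to 1.38. Single arrays moved them: without mid pressure hypo 49R the C1QTNF3 difference was 0.58, and without late pressure hyper 50R those of PTN and PHACTR3 were 0.23 and 0.056. Without the 3 arrays with muscle genes the differences were 1.76, 1.28 and 1.04 (limma, adjusted p = 0.743 each).

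In mid scar alone the pressure minus sham differences were 1.42 ± 0.82, 1.27 ± 0.68 and 0.91 ± 0.64 (limma, adjusted p = 0.999 each). Without pressure hypo 49R those of C1QTNF3 and PTN were 0.24 and 0.47, and without sham hypo 49L that of PHACTR3 was 0.27. In late scar alone they were 0.92 ± 0.82, 0.13 ± 0.68 and -0.03 ± 0.64 (adjusted p = 0.941, 0.992 and 0.997), and without pressure hyper 50R they were 0.22, -0.81 and -0.79. No feature passed in any of the 3 pressure comparisons in limma (0%), with 959, 851 and 1059 at an unadjusted p under 0.05 over both phases, in mid scar and in late scar. In early scar, where every biopsy was sham-treated, right minus left was 0.87 ± 0.84 for C1QTNF3, 0.47 ± 0.74 for PTN and 0.48 ± 0.68 for PHACTR3 (limma, adjusted p = 1 each, with 0% of features passing and 243 at an unadjusted p under 0.05).

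The 3 PTN probes correlated over the 28 arrays with Pearson's r from 0.988 to 0.995, and their early differences were 3.78, 3.69 and 3.33. The 2 PHACTR3 probes correlated with r = 0.976. The dimmer one was not well above background on 2 of 4 control and 5 of 8 late arrays, so its early difference of 2.96 and late difference of 0.42 rest in part on unmeasured levels and are no check of the brighter probe. C1QTNF3 rests on its lone probe. The reference channel moved less than the ratio: over the 28 arrays the log2 Cy3 signal had an SD of 0.28 for C1QTNF3, 0.27 for PTN and 0.40 for PHACTR3, against an SD of the ratio of 2.27, 1.86 and 1.64. For PHACTR3 the mean log2 Cy3 signal before loess was not even over the phases, at 7.34 in control skin and 7.89, 7.58 and 7.51 in early, mid and late scar. In control skin and early scar it was 7.73 and 7.91 for C1QTNF3 and 10.565 and 10.637 for PTN.

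Few relatives of the 3 genes could be measured with a gene name. Of the list of PTN partners and receptors 5 of 20 genes were measured, and 3 rose in early scar, where 24.1% of all features did. Without the cap on local background, or with median centring in place of loess, 1 did. The 3 were the integrin chains ITGAV (1.42 ± 0.24, adjusted p = 1.31e-04) and ITGB3 (0.94 ± 0.20, adjusted p = 8.07e-04), which together form a matrix receptor, and the kinase FYN (0.50 ± 0.19, adjusted p = 0.0407, limma with Benjamini-Hochberg adjustment). FYN lost the call under 12 of 24 alternatives and turned to -0.12 without the cap on local background. ITGB3 lost it without the cap and with median centring (0.26). The heparan sulfate proteoglycan SDC4 (-0.18 ± 0.13) and CTNNB1 (-0.16 ± 0.21) did not pass. From early to late sham scar ITGAV fell by 1.21 ± 0.24 and FYN fell by 0.83 ± 0.17, while ITGB3 (0.34 ± 0.20) did not pass. Both falls lost their call without the cap. The median of the list was 0.50 in early scar against 0.11 over all features.

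Of a list of the C1q/TNF family, complement C1q chains and adiponectin receptors, which also holds LAMP1 and SCARB2, 11 of 17 genes were measured. Of these, 5 rose and 2 fell in early scar, with a median of 0.25 against 0.11 over all features. Of all features 24.1% rose and 14.7% fell there, so the 2 that fell are near the background share. The 5 that rose became 3 without the cap on local background and 2 with median centring. The relatives C1QTNF2 (1.62 ± 0.37, adjusted p = 0.00160) and C1QTNF6 (1.58 ± 0.29, adjusted p = 2.93e-04) rose, and both fell from early to late sham scar, by 1.45 ± 0.37 and 1.38 ± 0.29 (limma). C1QTNF7 (-0.31 ± 0.19) did not pass. The complement chains C1QA (0.85 ± 0.20), C1QB (1.39 ± 0.36) and C1QC (1.07 ± 0.32), which macrophages make, rose in early scar and did not pass from early to late sham scar. The fat hormone ADIPOQ fell by 2.32 ± 0.60 in early scar and its receptor ADIPOR2 fell by 0.93 ± 0.16, while ADIPOR1 (-0.09 ± 0.12) did not pass. C1QTNF2 and C1QTNF6 lost the early call only without the cap on local background, and the 3 C1q chains lost it with median centring in place of loess. C1QC lost it also without control 50L, and the fall of ADIPOQ lost its call with the slide as a fixed block. The late falls of both relatives lost their call without the cap (-0.75 for C1QTNF2 and -0.52 for C1QTNF6). That of C1QTNF2 was lost also without late sham hyper 50L and without late sham hypo 50L, and that of C1QTNF6 with the processed signals and in the authors' deposited values.

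Of the list of PHACTR proteins, protein phosphatase 1 and actin 10 of 24 genes were measured, and none of the other PHACTR genes was among them. In early scar the actin crosslinker ACTN1 rose (1.32 ± 0.25, adjusted p = 2.98e-04), and the phosphatase catalytic subunits PPP1CA (-0.71 ± 0.16, adjusted p = 0.00189) and PPP1CB (-0.42 ± 0.16, adjusted p = 0.0460, limma) fell. The third subunit, PPP1CC (0.26 ± 0.13), and the smooth muscle actin ACTA2 (-0.66 ± 0.27, adjusted p = 0.0599) did not pass. From early to late sham scar ACTN1 fell by 0.78 ± 0.25 and the adhesion protein VCL fell by 0.54 ± 0.14. The median of the list in early scar was 0.19, against 0.11 over all features. Of all features 24.1% passed as higher and 14.7% as lower in early scar, so the 1 of 10 that rose is below that share and the 2 of 10 that fell are near it. PPP1CB kept its call under 8 of 24 alternatives. The late fall of ACTN1 lost its call under 8 of 24 and that of VCL under 3 of 24.

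Since C1QTNF3 was first known from cartilage, cartilage genes were looked at as well, of which only ACAN and SOX9 were measured out of 21. The proteoglycan ACAN rose in early scar (2.13 ± 0.55, adjusted p = 0.00427) and fell by 2.23 ± 0.55 from early to late sham scar (limma, adjusted p = 0.00908). SOX9, the master regulator of cartilage cells, was well above background on 4 of 4 control arrays and on 0 of 8 early, 0 of 8 mid and 2 of 8 late arrays. Both calls of ACAN were lost without the cap on local background, and the late one also with the slide as a fixed block and without late sham hyper 49L.

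Matrix genes of fibroblasts moved with C1QTNF3, PTN and PHACTR3. All 13 measured genes of a list of 21 rose in early scar, with a median of 2.94 against 0.11 over all features, among them the cadherin CDH11 with 2.97 ± 0.35 (adjusted p = 2.74e-06), the collagen chain COL5A2 with 3.38 ± 0.46 (adjusted p = 1.39e-05) and VCAN, a large proteoglycan, with 3.20 ± 0.41 (adjusted p = 6.02e-06, all by limma). Of all features 24.1% passed as higher there. In late scar against control skin 7 of 13 passed as higher (26.3% of all features), with a median of 1.38, and 8 of 13 fell from early to late sham scar (10.3% of all features). Without the cap on local background these counts were 1 and 0, and without the 3 arrays with muscle genes 11 and 11. Median centring gave 4 of 13 in late scar. Several of these genes were seen to be high in early scar before the list was made. The matrix glycoprotein TNC stood at 2.21 ± 0.52 in early scar and 0.19 ± 0.52 in late scar, and CDH11 at 0.79 in late scar. The level of the list, as the mean of its centred log2 ratios, was -2.48 to -1.13 in control skin, 0.63 to 1.65 in early, -0.97 to 0.98 in mid and -1.32 to 1.19 in late scar.

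Over the 28 arrays the list level correlated with C1QTNF3 (r = 0.922), PTN (r = 0.932) and PHACTR3 (r = 0.940). After the group means and the animal were removed, r was 0.832, 0.859 and 0.820. These points share 2 animals, a common reference and the phases on which the genes were chosen, and the values are a description. The mid and late arrays on which the 3 genes were high were those with a high matrix level: the late pressure hyper biopsy 50R had 1.19, the highest of late scar, and the mid biopsies pressure hypo 49R, sham hypo 50L and pressure hyper 50R had 0.98, 0.70 and 0.43, the 3 highest of mid scar. The late arrays of animal 49 were all between -1.32 and -0.86, those of animal 50 between -0.39 and 1.19.

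**Figure D5:**
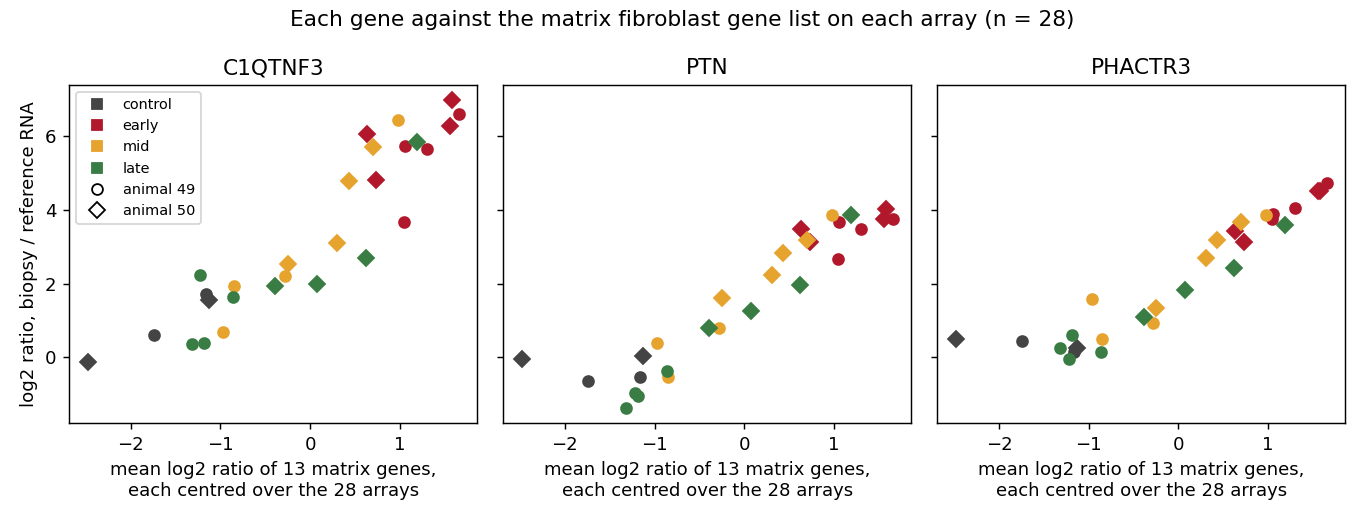
Log2 ratio of C1QTNF3, PTN and PHACTR3 on each array against the mean centred log2 ratio of the 13 matrix genes, with phase by colour and animal by symbol. Points of all phases lie along a common band, with r = 0.922, 0.932 and 0.940 over the 28 arrays.

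The levels of cell type marker lists also differed between the phases. The 4 measured fibroblast markers, COL1A2, DCN, LUM and THY1, are also in the matrix list above, so their rise is not a separate result. Of 7 fibroblast markers 4 were measured and 4 rose in early scar, with list levels of -2.09 to -0.63 in control skin, 0.33 to 1.52 in early and -1.04 to 0.75 in late scar. Of 11 keratinocyte markers 5 were measured and 3 fell in early scar, and the list level was 0.90 to 1.06 in control skin and -2.68 to -0.02 in early scar, lowest on early sham hypo 50L. The epithelial proteins CDH1 and EPCAM were well above background on all 28 arrays and IVL, a protein of the cornified layer, on 26. Of 6 adipocyte markers 5 fell in early scar. Among the 6, PLIN1 was well above background on 4 control and 0 early arrays, and PNPLA2 on 4 and 2. Their early levels were thus wholly or largely unmeasured. Of 13 skeletal muscle markers 2 rose. Over all features 24.1% rose and 14.7% fell in early scar, so the muscle count is below that share. The correlation of the keratinocyte list was -0.56 with C1QTNF3, -0.39 with PTN and -0.37 with PHACTR3, and that of the muscle list -0.03, -0.14 and -0.21. After group means and animal were removed these became 0.15, 0.40 and 0.52 for the keratinocyte list, with the sign turned, and -0.28, -0.41 and -0.57 for the muscle list. The part of these shifts in the values of the 3 genes was not tested.

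The 3 genes were also set against the other 2645 named features by likeness of pattern, which over these arrays includes the course on which they were chosen. PHACTR3 had the highest correlation of all with PTN (r = 0.967, and 0.916 after group means and animal were removed), and PTN ranked 3rd for PHACTR3. PTN ranked 6th for C1QTNF3 (r = 0.936, residual 0.847) and PHACTR3 ranked 15th (r = 0.919, residual 0.759), while C1QTNF3 ranked 6th for PTN and 27th for PHACTR3. The median r of a named feature with C1QTNF3 was -0.05. For C1QTNF3 the 5 most alike were TNC (0.956), the secreted protein ANGPTL2 (0.953), the fatty acid desaturase SCD5 (0.951), CDH11 (0.943) and the protease MMP11 (0.941). Apart from PHACTR3, those of PTN were the endoplasmic reticulum protein CKAP4 (0.963), CNPY2 (0.947), ITGA2B (0.945) and TNC (0.942). Apart from PTN, those of PHACTR3 were CKAP4 (0.976), ITGA2B (0.971), COL5A2 (0.956) and CNPY2 (0.955). CKAP4 kept a residual r of 0.977 with PTN and 0.939 with PHACTR3 after group means and animal were removed.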

How the data were processed

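RNA of 28 biopsies was hybridised to 28 Agilent 2-colour arrays on 7 slides of 4, biopsy in Cy5 and universal reference in Cy3 without dye swap, per the labels. Agilent Feature Extraction 10.7.1.1 read the scans, per the submitters' processing notes, and the deposited scanner files give spot and background brightness as intensity, the processed signals also as intensity, and their ratio as log10. The authors' deposited value table is in log2 and equalled the log2 ratio of the processed signals within 0.001. Its column medians ran from 0.0124 to 0.26. No further step is given in the sources used here.

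Median spot intensities were corrected by normexp (offset 50) after local backgrounds were capped at the 99th percentile of each array and channel, a step taken over from earlier work on these data. Log2 ratios were then normalised by loess within each array (limma 3.58.1, R 4.3.3). Probes well above background in Cy5 on at least 4 arrays were kept (24513 of 43603), and the probe of highest mean Cy5 signal stood for a gene. Gene symbols came from RefSeq accessions for 6924 probes (15.9%). A single limma fit held 11 group means with the animal as a block, with Benjamini-Hochberg adjustment across all features and a threshold of 0.05. Each feature thus had a single estimate of its spread, shared by all phases. Right against left in early scar and the contrasts between animals used fits of their own on the same arrays. The number of arrays limits the precision. No 2 arrays held identical values, and the highest correlation of 2 arrays was 0.954.

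The animal pairs biopsies by design. After group means were removed, arrays of the same animal correlated with a mean of 0.0346 and arrays of different animals with -0.0345 (176 pairs each). Removing the means of such small groups makes these values near opposites by arithmetic, so the negative one adds nothing to the positive one. The labels do not say whether biopsies of a side came from separate wounds.

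The genes and lists were chosen with earlier results of these data known. Named are the 3 genes with all probes, up to 6 genes of lowest p or of like role from each list, the 5 named features most correlated with each gene, and marker genes whose list moved with them. Marker lists were also made for endothelial, smooth muscle, macrophage, Schwann, melanocyte, T and cycling cells, and these had r between -0.47 and 0.54 with the 3 genes. Of the chondrocyte list only ACAN and SOX9 were measured. They went opposite ways in early scar against control skin, at 2.13 for ACAN and -0.89 for SOX9. SOX9 was well above background on 4 control, 0 early, 0 mid and 2 late arrays, so its scar levels were largely unmeasured. The chondrocyte list level thus rests on ACAN and a gene near the floor, and is no measure of cartilage genes at large. It had r of 0.764, 0.828 and 0.793 with C1QTNF3, PTN and PHACTR3. The adipocyte list had r of -0.457, -0.581 and -0.591. After group means and animal were removed these became 0.717, 0.882 and 0.848 for the chondrocyte list and -0.335, -0.543 and -0.61 for the adipocyte list. The comparisons between animals, the change of the hyper minus hypo difference and the fit without muscle-rich arrays were added after the data were seen. The tests were also run on simulated data, with noise drawn independently for each feature and array. Such data hold no slide effects and no correlation between genes, so they are no check on those. Alternatives were the cap, the offset, the processed signals, the value table, median centring, scaling between arrays, the probe filter, the mean of probes, the animal and slide blocks, and leaving out each array. Probe sequences and genome positions were not used here.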

Additional observations from a re-analysis of the deposited data

Results flagged for a closer look

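Of 18 checks for a lone high or low array within a group of 4 to 8 arrays, 1 stood out, where chance gives about 1 in 20: C1QTNF3 on the late pressure hyper array of animal 50 right, with a log2 ratio of 5.85 against 0.37 to 2.70 on the other 7 late arrays. PTN and PHACTR3 were also highest of late scar on this array, at 3.86 and 3.60.

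The hyper minus hypo difference of C1QTNF3 changed by 3.17 from early to late scar, with all 4 early pairs below 0 and all 4 late pairs above 0. That of PTN changed by 1.68 with the same pattern of pairs. The share of all features with this pattern is not given. C1QTNF3 and PTN moved together over the arrays (r = 0.847 after group means and animal were removed), so PTN is not a separate result. The test of the change itself did not pass for either gene (limma, adjusted p = 0.119 and 0.331).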

How the results depend on the processing

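Of 843 values of the 36 tested results of the 3 genes under the alternatives, 1 passed the threshold: C1QTNF3 in hyper minus hypo, late scar, at 2.774 with the slide as a fixed block (limma, adjusted p = 0.034). Of 408 alternative values of the early, mid and late differences used to choose the genes, 8 changed sign, all in late scar. They were the differences in animal 49 alone (-0.0019, -0.37 and -0.054 for C1QTNF3, PTN and PHACTR3), within slide 2 (-1.25 and -0.81 for C1QTNF3 and PTN), within slide 4 (-0.94 and -0.57 for PTN and PHACTR3) and with median centring (-0.14 for PTN). Median centring moved the median of all features in late scar against control skin from 0.101 to -0.104.

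Without the animal as a replicate block the late hyper minus hypo differences were 1.94, 1.21 and 0.58 (limma, adjusted p = 0.219, 0.444 and 0.678), with 975 features passing, and no call of the 3 genes changed. Without the cap on local background the early differences were 3.58 for C1QTNF3 and 2.46 for PHACTR3 and the late minus early sham difference of PHACTR3 was -1.76. With the slide as a fixed block the early differences were 5.75 for C1QTNF3 and 4.16 for PTN. Within slides they were 5.66 and 6.48 for C1QTNF3 and 4.37 for PTN, and the mid differences 4.81 and 5.09, 4.12 and 3.81, and 3.66 and 3.22. Other probes gave early differences of 3.33 for PTN and 2.96 for PHACTR3 (a probe dim on 2 of 4 control arrays), and median centring a late minus early sham difference of -3.97 for PTN.

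Results that did not pass also changed sign. Hyper minus hypo over all phases became 0.036 for C1QTNF3 and 0.17 for PTN with the slide block, 0.10 and 0.044 for PTN with median centring and scaling, and 0.28 for PTN and 0.089 for PHACTR3 without the muscle-rich arrays. Late pressure minus sham became -0.17 for PTN without the cap, and 0.20, 0.19 and 0.74 for PHACTR3 with median centring, the mean of probes and without the muscle-rich arrays. Right minus left became -0.0037 for PHACTR3 without those arrays, and the early difference between animals 0.69 for PHACTR3 without the cap and 0.040 for PTN with the slide block. Among list genes FYN in early scar became -0.12 without the cap, and ITGB3 and PPP1CC in late scar -0.22 and -0.48 with median centring.

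Counts of features passing changed as follows. Without the cap they were 2 in mid and 11 in late against early sham scar, 0, 165 and 70 in hyper minus hypo over all phases, in late scar and in its change. An offset of 10 gave 473 and 396 for the last 2. The processed signals gave 7 over all phases, 1 in mid scar and 4 in late pressure minus sham, the authors' deposited values gave 7, 1 and 5 for the same comparisons and 597 for the change. Median centring gave 5696, 1 and 2295 in late against early sham scar, hyper minus hypo over all phases and late. The slide block gave 4148 in mid scar, 211 and 1079 in mid and late against early sham scar, and 0, 32 and 440 in hyper minus hypo over all phases, in mid scar and in its change. No filter gave 1 in each difference between animals. Without the muscle-rich arrays they were 467, 2, 2 and 3 in the change of hyper minus hypo, mid hyper minus hypo, mid pressure and right minus left.

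Leaving out each array in turn gave ranges. For hyper minus hypo over all phases they were -0.74 to 0.042, -0.33 to 0.29 and -0.45 to 0.057 for C1QTNF3, PTN and PHACTR3. For PHACTR3 they were -0.65 to 0.13 in early and -0.18 to 1.35 in late hyper minus hypo, -0.79 to 0.74 in late pressure minus sham and -0.094 to 1.05 in right minus left. For PTN they were -1.60 to 0.014 in mid hyper minus hypo and -0.81 to 1.06 in late pressure minus sham. Counts ranged from 3905 (without control 50L) to 6592 in mid scar, from 24 (without sham hypo 49L) to 1787 in mid and from 2153 (without late sham hyper 50L) to 3666 in late against early sham scar. In hyper minus hypo they ranged from 1 to 8 over all phases, 0 to 2 in early, 0 to 104 in mid (without pressure hyper 50R), 31 to 1482 in late and 220 (without late sham hyper 49L) to 1623 in the change. In pressure minus sham they ranged from 0 to 41 over both phases, 0 to 7 in mid and 0 to 48 in late, in right minus left from 0 to 6, and in the early, mid and late differences between animals from 0 to 27, 29 and 29.

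The study holds 28 arrays of 2 animals. The 3 genes were well above background on every array.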
